A study of Mus musculus with 6 samples.

Results

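The glucocorticoid receptor gene Nr3c1 and 9 genes that control or answer its signal in liver were followed in mice with knockdown of the lncRNA Hnf1aos1: Hsd11b1, Fkbp5, Tsc22d3, Sgk1, Tat, Dusp1, Zbtb16, Klf9 and Serpina6. They were taken by gene symbol from the count table, and 10 of 10 symbols were found among 40803 mouse genes. Bulk RNA-seq of whole liver from 6 male C57BL/6J mice was compared, 3 given rAAV8-sh-scramble and 3 given rAAV8-sh-Hnf1aos1, each mouse with its own library and a replicate number from 1 to 3. Both groups carried the same kind of vector, an adeno-associated virus with an EGFP reporter and a short hairpin RNA driven by the U6 promoter, which is active in any transduced cell and not in hepatocytes alone. The hairpin was directed against Hnf1aos1 or was a scrambled sequence. The mice were about 6 weeks old at injection into the tail vein and were sampled 4 weeks later. They were fed normally, no glucocorticoid treatment is described, and no uninjected mice are among these libraries. Neither the time of day of sampling nor a corticosterone measurement is given in the sources used here.

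Glucocorticoids are adrenal steroids, in mice chiefly corticosterone, and reach the liver bound to corticosteroid-binding globulin, the product of Serpina6. The receptor encoded by Nr3c1 waits in the cytoplasm in a complex with heat shock proteins, enters the nucleus when it binds hormone, and there activates or represses genes. In hepatocytes it is best known for inducing amino acid breakdown and gluconeogenesis during fasting and stress, and elsewhere for damping inflammation. The blood level of corticosterone follows the time of day, so several of its targets are also rhythmic.

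Reads on mouse genes totalled 14704746 to 16532510 in the scramble and 18021614 to 19462398 in the knockdown libraries. Values below are normalized counts, which are read counts divided by the size of the library on edgeR's TMM scale relative to the mean of the 6 libraries. The comparison used edgeR's quasi-likelihood test, and a gene was called when its Benjamini-Hochberg adjusted p over 16327 tested genes was under 0.05. The targeted lncRNA Hnf1aos1 had normalized counts of 512, 491 and 620.3 in the scramble libraries and of 278, 258 and 433 in the knockdown libraries. The groups did not overlap, but the log2 fold change of -0.74 (SE 0.195) was not called (adjusted p = 0.0625 from edgeR's test). DESeq2 did call Hnf1aos1 (-0.74, adjusted p = 0.00341 from DESeq2), while edgeR called it in only 1 of 6 fits with 1 library left out. The study also reports a lower Hnf1aos1 level by RT-qPCR in the knockdown livers. Knockdown replicate 3 stood apart: over all tested genes its root mean square difference in log2 CPM from the scramble libraries was 0.493 to 0.562, against 0.599 to 0.664 for the other knockdown libraries, and it had the highest Hnf1aos1 level of its group. Where a call or an overlap below turns on this library, the value without it is given too. Leaving it out also raised the calls over all genes, from 1032 of 16327 to 1881 of 16762 tested. Hepatocyte markers such as Alb and Hnf4a were not called by edgeR's test (0 of 7, with 2 at an unadjusted p under 0.05 and 2 called by DESeq2). All knockdown values of Apoa1 and Apob (log2 fold change 0.41 and 0.34) lay above the scramble range, and those of Ass1 (-0.18) below it. The groups did not overlap for 28.9% of all tested genes. The summed level of the hepatocyte markers was 78049 to 82358 TPM, a unit that corrects reads for gene length and depth, in the scramble and 72205 to 87751 in the knockdown group.

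The receptor acts on DNA through an inverted repeat of the hexamer AGAACA with a spacer of 3 bases, and upstream sequence is shown here for 4 members because they stand for the responses described below. RefSeq windows on GRCm38.p6, from 250 bases before to 50 after a transcript start, were given for 7 of the 10 members, with 14 windows in all. Both strands were searched for AGAACA, found in 19.0% of 32851 windows of that length, and for the full repeat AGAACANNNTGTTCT, which contains the hexamer on both strands and was found in 3 windows (0.00913%). One of these 3 belongs to Sgk1, at chr10:21993640-21993939 on the plus strand, where the repeat begins 189 bases before the start. The other windows with the full repeat belong to Acnat2, which was not called (log2 fold change 0.67, adjusted p = 0.633 from edgeR's test), and to Gm35041, which did not pass the filter on low counts. The 250 bases before the start are printed from 5' to 3' in the direction of transcription, with each match in capitals. The Sgk1 sequence lies at chr10:21993640-21993889 on the plus strand, the Tsc22d3 sequence at chrX:140600523-140600772 on the minus strand, the Tat sequence at chr8:109990186-109990435 on the plus strand and the Fkbp5 sequence at chr17:28486150-28486399 on the minus strand.
Sgk1: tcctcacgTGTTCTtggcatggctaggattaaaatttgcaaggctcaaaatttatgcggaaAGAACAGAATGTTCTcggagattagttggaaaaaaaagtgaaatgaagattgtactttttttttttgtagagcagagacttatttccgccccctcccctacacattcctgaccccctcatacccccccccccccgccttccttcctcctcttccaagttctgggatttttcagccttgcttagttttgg
Tsc22d3: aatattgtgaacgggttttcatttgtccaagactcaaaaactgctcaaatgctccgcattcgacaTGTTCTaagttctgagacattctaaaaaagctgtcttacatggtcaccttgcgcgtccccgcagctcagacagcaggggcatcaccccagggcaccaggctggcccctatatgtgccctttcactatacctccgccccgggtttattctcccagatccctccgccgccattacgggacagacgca
Tat: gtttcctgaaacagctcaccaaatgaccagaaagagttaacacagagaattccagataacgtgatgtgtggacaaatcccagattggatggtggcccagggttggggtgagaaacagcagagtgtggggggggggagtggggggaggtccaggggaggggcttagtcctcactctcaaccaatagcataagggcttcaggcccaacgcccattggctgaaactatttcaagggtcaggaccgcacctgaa
Fkbp5: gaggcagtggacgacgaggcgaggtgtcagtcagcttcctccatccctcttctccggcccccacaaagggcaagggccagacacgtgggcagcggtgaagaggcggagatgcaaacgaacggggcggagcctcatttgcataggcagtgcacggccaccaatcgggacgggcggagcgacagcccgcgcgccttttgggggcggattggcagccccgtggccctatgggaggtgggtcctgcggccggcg
The Sgk1 stretch holds the full repeat and a further hexamer upstream of it, and the Tsc22d3 stretch holds a single hexamer, 185 bases before the start. The windows of Tat, Fkbp5, Dusp1, Hsd11b1 and Klf9 held neither motif. A further 2 of the 6 Sgk1 windows held 1 hexamer each, and the other 2 Tsc22d3 windows held none. The printed windows of Sgk1 and Tsc22d3 are thus those with the most matches, and which start is used in liver was not tested. A match describes letters only, and the lack of a match does not show that a site is absent. A shorter core of the repeat, with some letters left free, was searched as well and was found in 156 of the 32851 windows (0.475%). Among the 14 windows of the members, only the printed Sgk1 window held this core, 188 bases before the start and inside the full repeat. Other inexact sites were not searched. These windows also leave out distant enhancers, through which the receptor often acts.

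Among the 10 genes, Tsc22d3 and Tat fell after knockdown and none rose by the test. Tsc22d3, which encodes the leucine zipper protein GILZ that is induced by glucocorticoids, was at 42.7% of its scramble level, and Tat, the hepatocyte enzyme that starts tyrosine breakdown, was at 60.6%. The 2 of 10 genes called compare with 6.32% of all tested genes, and 0 called higher and 2 called lower with 3.09% and 3.23%. The groups did not overlap in 6 of the 10, which were Nr3c1 and Fkbp5 on the higher side and Tsc22d3, Sgk1, Tat and Serpina6 on the lower, against 28.9% of all tested genes in either direction, 15.2% on the higher and 13.7% on the lower side. Those 6 were also the genes with an unadjusted p under 0.05, a level that 3822 of the 16327 tested genes reached. That share is the background for the other counts at this level. The median log2 fold change of the 10 genes was -0.16 with 4 above and 6 below 0, and -0.000396 over all tested genes. In whole liver, fewer cells of a type and less RNA per cell cannot be told apart.

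**Figure D1:**
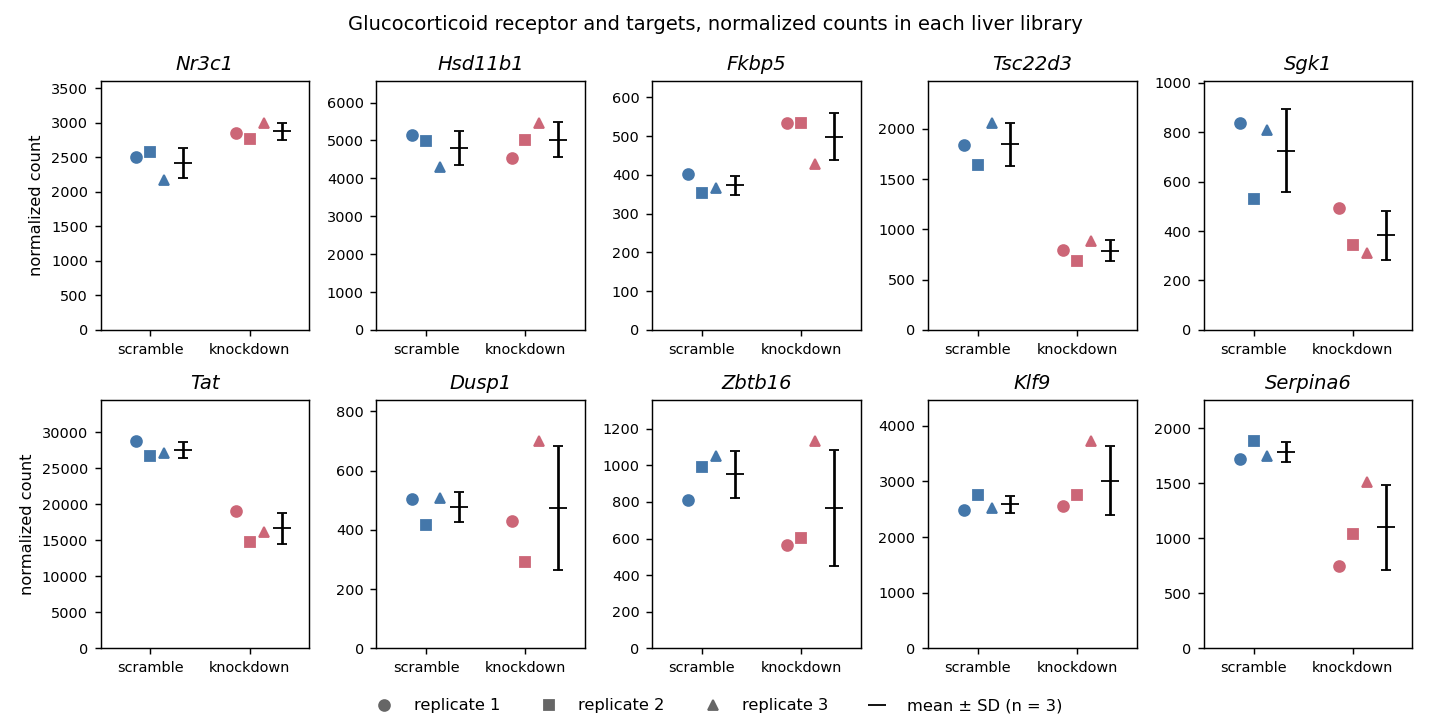
Normalized counts of the 10 genes in each library, with 1 panel per gene, symbols for replicates 1 to 3 and the mean ± SD of each group (n = 3). The groups are fully separate for Nr3c1, Fkbp5, Tsc22d3, Sgk1, Tat and Serpina6, while knockdown replicate 3 lies apart from the other knockdown libraries for Dusp1, Zbtb16 and Klf9.

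The members that set the strength of the signal came first. All are protein-coding genes, and their spans are given on GRCm38 from GENCODE M21. Nr3c1, the receptor (chr18:39410545-39519421, minus strand), had normalized counts of 2503, 2579 and 2179 in scramble replicates 1, 2 and 3 and of 2859, 2762 and 3006 in the knockdown replicates. The 3 knockdown values lay above the 3 scramble values, and the means were 2421 ± 213 and 2876 ± 123 (SD, n = 3). Its log2 fold change was 0.25 with a 95% interval of 0.04 to 0.46 and was not called (adjusted p = 0.141 from edgeR's test). It stayed between 0.17 and 0.29 when any 1 library was left out, without a call.

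Hsd11b1 encodes the reductase that regenerates active corticosterone from its inert keto form inside hepatocytes (chr1:193221634-193264075, minus strand). Scramble replicates 1 to 3 had normalized counts of 5136, 4984 and 4298, and knockdown replicates 1 to 3 had 4549.8, 5022 and 5473. The groups overlapped, with means of 4806 ± 447 and 5015 ± 462 (SD, n = 3). At 0.06, the log2 fold change had a 95% interval of -0.17 to 0.30 and was not called (adjusted p = 0.778 from edgeR's test). Its sign turned negative, at -0.0089, with library totals in place of TMM.

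Serpina6 encodes corticosteroid-binding globulin, which hepatocytes secrete and which carries corticosterone in blood (chr12:103646630-103657212, minus strand). Scramble mice had normalized counts of 1723, 1885 and 1748, and knockdown mice had 748, 1041 and 1514. No knockdown value reached the scramble range, but replicate 3 was 1.69 times the mean of the other knockdown libraries. The means were 1785 ± 87.2 and 1101 ± 387 (SD, n = 3), a coefficient of variation of 4.89% against 35.1%. A log2 fold change of -0.70 (SE 0.242) was not called (adjusted p = 0.151 from edgeR's test). Without knockdown replicate 3 it was -0.99 and was called (adjusted p = 0.000386 from edgeR's test), and knockdown replicates 1 and 2 averaged 0.501 times the scramble mean. Serpina6 was called in only 1 of 6 fits with 1 library left out. These ran from -0.99 to -0.49, with an adjusted p of up to 0.338 from edgeR's test.

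Fkbp5 encodes a co-chaperone that glucocorticoids induce in many tissues and that lowers the receptor's affinity for hormone (chr17:28399094-28517527, minus strand). In scramble liver the normalized counts were 401, 352 and 365, and after knockdown they were 535, 533 and 428. Every knockdown value was above every scramble value, opposite in side to Tsc22d3 and Tat. The means were 373 ± 25.3 and 499 ± 61.0 (SD, n = 3), and the log2 fold change of 0.42 (95% interval 0.17 to 0.67) missed the threshold (adjusted p = 0.0517 from edgeR's test). Without knockdown replicate 3, the lowest of its group, it was 0.52 and was called (adjusted p = 0.00881 from edgeR's test). Fkbp5 was called in only 1 of 6 fits with 1 library left out, with an adjusted p of up to 0.215 from edgeR's test.

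Library scaling bears on these 2 genes above the scramble level. Sizes taken from the 92 spike-in transcripts, which made up 1.38% to 1.52% of the scramble and 1.18% to 1.24% of the knockdown counts, moved the median over all genes to 0.20 on the log2 scale. On that scale Fkbp5 was at 0.62 and Nr3c1 at 0.45, and both were called higher (adjusted p = 0.00484 and 0.0156 from edgeR's test). Relative to the shifted median this is close to the TMM values. The calls over all genes were 505 higher and 527 lower with TMM, 3030 higher and 364 lower with spike-in sizes, 319 and 729 with library totals, and 200 and 394 with limma on log2(TPM + 0.1).

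Kupffer cell markers lay on the same side as Fkbp5 and Nr3c1. All 6 markers of these resident liver macrophages had knockdown values above the scramble range, as did 15.2% of all tested genes, with a median log2 fold change of 0.45, and Clec4f and Adgre1 were called higher (0.44 and 0.41, adjusted p = 0.0327 and 0.0485 from edgeR's test). These calls are fragile, since Clec4f kept its call in 2 and Adgre1 in 1 of 6 fits with 1 library left out. The summed level of the 6 markers was 109 to 135 TPM in the scramble and 138 to 183 TPM in the knockdown group, and none was at 0 in any library. Marco had the largest difference that was not called (1.41, adjusted p = 0.0797 from edgeR's test), and without knockdown replicate 3 it was 1.70 and was called (adjusted p = 0.00813 from edgeR's test). That was the only call of Marco in the 6 fits with 1 library left out. Both Fkbp5 and Nr3c1 are expressed in macrophages as well as hepatocytes, and the part of Kupffer cells in their values was not tested.

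The induced targets split into a pair that fell and several that did not pass. Tsc22d3 (chrX:140539528-140600659, minus strand), whose product GILZ restrains inflammatory transcription factors, had normalized counts of 1838, 1635 and 2062 in the scramble libraries and of 798, 681 and 886 in the knockdown libraries. The highest knockdown library lay far below the lowest scramble library. The means were 1845 ± 213 and 788 ± 103 (SD, n = 3), and the log2 fold change was -1.23 (SE 0.119, 95% interval -1.49 to -0.97, adjusted p = 0.000806 from edgeR's test). It was called in each of the 6 fits with 1 library left out, between -1.32 and -1.13. Its knockdown libraries were at 43.3%, 36.9% and 48.0% of the scramble mean, so replicate 3 did not stand apart here as it did for Serpina6.

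Tat (chr8:109990437-109999803, plus strand), the tyrosine aminotransferase that has long served as the textbook hepatic glucocorticoid target, had normalized counts of 28789, 26735 and 27094 in the scramble libraries. The knockdown libraries had 19056, 14807 and 16196, all well below. The means were 27539.5 ± 1097 and 16686 ± 2166 (SD, n = 3), and the log2 fold change was -0.72 (SE 0.116, 95% interval -0.98 to -0.47, adjusted p = 0.00766 from edgeR's test). It kept its call in 5 of the 6 fits with 1 library left out and was just outside the threshold without scramble replicate 3 (-0.74, adjusted p = 0.0523 from edgeR's test). Knockdown replicate 3 was 0.957 times the mean of the other knockdown libraries.

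Sgk1 (chr10:21882184-21999903, plus strand), a kinase that glucocorticoids and mineralocorticoids induce and that acts on ion transport and survival, had normalized counts of 839, 531 and 807 in the scramble libraries. The knockdown libraries had 495, 342 and 311, so the lowest scramble and the highest knockdown value lay close together. The mean was 52.7% of the scramble mean, at 726 ± 169 and 383 ± 98.6 (SD, n = 3). Its log2 fold change of -0.93 (SE 0.233) was larger than that of Tat but was not called (adjusted p = 0.0656 from edgeR's test), and its coefficients of variation were 23.3% and 25.8%. It was called without scramble replicate 2 (-1.11, adjusted p = 0.030 from edgeR's test) or without knockdown replicate 1 (-1.16, adjusted p = 0.0248 from edgeR's test), which were the libraries nearest to the other group.

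The other 3 induced targets did not pass the test, and each was highest in knockdown replicate 3. Dusp1 (chr17:26505590-26562128, minus strand), a phosphatase that switches off MAP kinases and shares 11 of 3311 exonic bases with Ergic1 on the opposite strand, had normalized counts of 506, 417 and 507 in scramble mice and 430.1, 292 and 700.1 after knockdown. The groups overlapped, and knockdown replicate 3 was 1.94 times the mean of the other knockdown libraries. The log2 fold change of -0.01 had a 95% interval of -0.83 to 0.81 (adjusted p = 0.994 from edgeR's test), it was -0.40 without knockdown replicate 3, and its sign turned positive (0.20) with spike-in sizes. A change of a size like that of Tat therefore lay inside the interval for Dusp1.

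Zbtb16 (chr9:48654297-48836222, minus strand), a zinc finger repressor that is among the strongest glucocorticoid-induced genes in many cells, had normalized counts of 808, 991 and 1054 in scramble mice and 564, 602 and 1133 after knockdown. Knockdown replicates 1 and 2 lay below the scramble range and replicate 3 above it. This gave a log2 fold change of -0.31 (SE 0.303, adjusted p = 0.594 from edgeR's test). Without knockdown replicate 3 it was -0.70 and was called lower (adjusted p = 0.00252 from edgeR's test). Zbtb16 was called in only 1 of 6 fits with 1 library left out, with an adjusted p of up to 0.855 from edgeR's test.

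Klf9 (chr19:23141226-23168134, plus strand), a Krüppel-like factor that responds to glucocorticoids and to the time of day, had normalized counts of 2479, 2757 and 2521 in scramble mice and 2558, 2759 and 3723 after knockdown. Only knockdown replicate 3 lay clearly above the scramble range. Its log2 fold change of 0.22 (95% interval -0.07 to 0.51, adjusted p = 0.345 from edgeR's test) was 0.04 without that library.

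**Figure D2:**
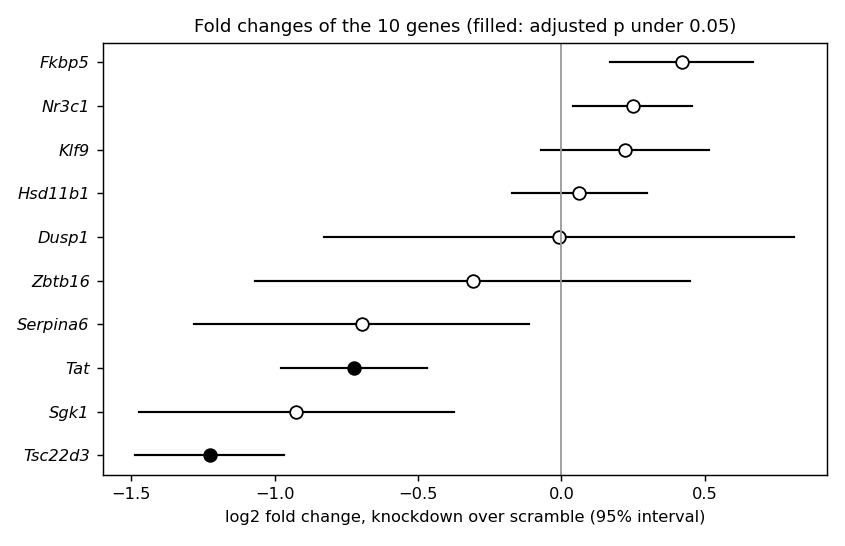
The log2 fold change of each gene, knockdown over scramble, with its 95% interval from edgeR's quasi-likelihood fit. Tsc22d3 (-1.23) and Tat (-0.72) are called and drawn filled, and Sgk1 (-0.93) and Serpina6 (-0.70) lie beside them with wider intervals.

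Setting each library against the scramble mean showed which libraries carried these values. Tsc22d3, Tat and Sgk1 were below the scramble range in all 3 knockdown libraries, at 36.9% to 48.0%, 53.8% to 69.2% and 42.8% to 68.2% of the scramble mean. Serpina6 ran from 41.9% in knockdown replicate 1 to 84.8% in replicate 3. Zbtb16 was at 59.3% and 63.3% in replicates 1 and 2 and at 119% in replicate 3, and Dusp1 at 90.2%, 61.2% and 147%. Counting error alone was small beside these spreads, with a Poisson coefficient of variation of 0.597% to 5.71% over the 10 genes and libraries.

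**Figure D3:**
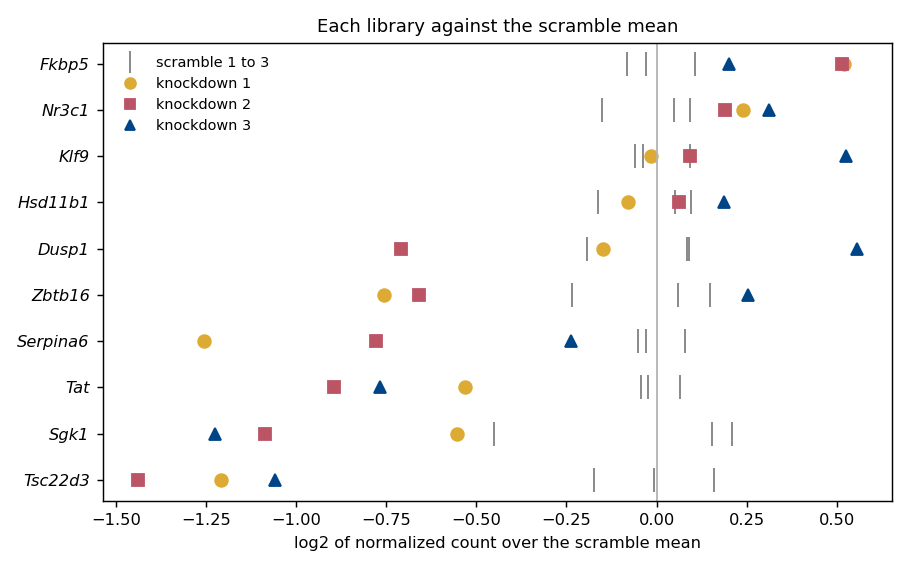
The log2 ratio of each library's normalized count to the scramble mean of the gene, with grey ticks for the 3 scramble libraries and 1 symbol per knockdown library. Knockdown replicate 3 is the highest knockdown library for Dusp1, Zbtb16, Klf9, Serpina6, Tsc22d3, Hsd11b1 and Nr3c1, and the lowest for Fkbp5 and Sgk1.

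The number of the 10 genes called was 5 without knockdown replicate 3, namely Tsc22d3, Serpina6, Zbtb16 and Tat lower and Fkbp5 higher, where 11.2% of all tested genes were called. It was 1, Tsc22d3, without scramble replicate 3, where only 103 of 16649 tested genes were called. Without any of the others it was 2 or 3, where 323 to 630 genes were called of 16733 to 16837 tested. DESeq2 on all 6 libraries called 4, adding Sgk1 and Serpina6 (adjusted p = 0.000194 and 0.00628 from DESeq2) to Tsc22d3 and Tat, against 7.11% of the genes it tested. Only Tsc22d3 was called in all of these fits.

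**Figure D4:**
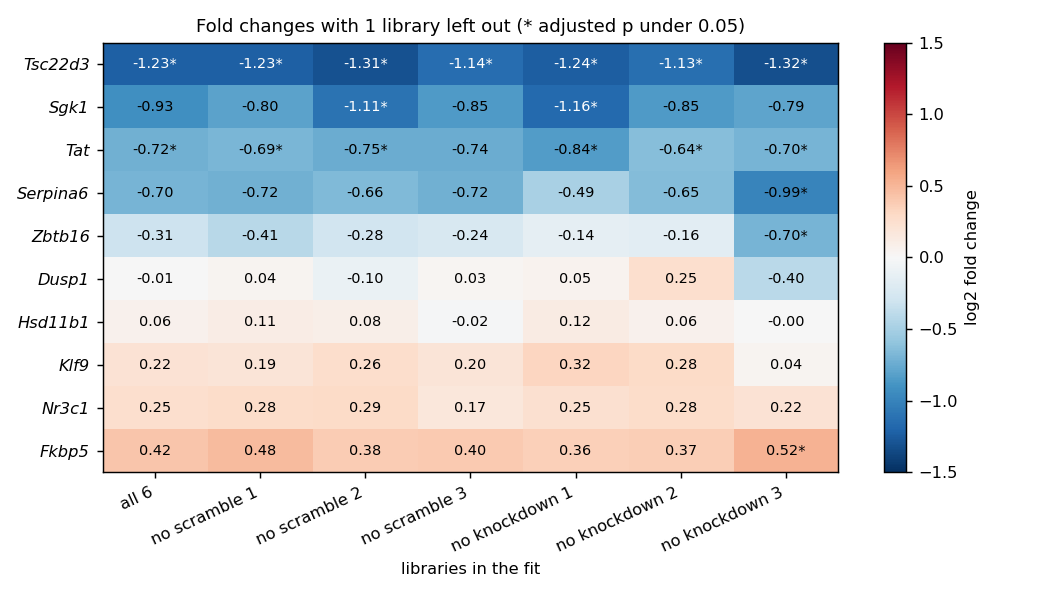
The log2 fold change of each gene in the fit of all 6 libraries and in the 6 fits with 1 library left out, with an asterisk for an adjusted p under 0.05. Tsc22d3 carries the asterisk in every column, Tat in all but the fit without scramble replicate 3, and Dusp1 changes sign between columns.

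Levels of different genes were compared in TPM. In the scramble group Tat was at 1116 ± 49.5 TPM (SD, n = 3), followed by Hsd11b1 at 379 ± 25.8, Serpina6 at 144 ± 5.86, Klf9 at 75.2 ± 3.61, Tsc22d3 at 57.4 ± 8.26 and Nr3c1 at 36.0 ± 2.17. Dusp1 at 32.0 ± 4.10, Sgk1 at 22.8 ± 5.65, Zbtb16 at 15.1 ± 2.30 and Fkbp5 at 12.5 ± 0.882 TPM followed. The ranges of Nr3c1 and Dusp1, of Sgk1 and Zbtb16 and of Zbtb16 and Fkbp5 overlapped, and the order of the other neighbours held beyond their spread. In the knockdown group Tat at 643 ± 106 and Hsd11b1 at 375 ± 25.7 TPM still led. Tsc22d3, at 23.2 ± 3.21 TPM, stood below Nr3c1 at 40.6 ± 2.17, and Sgk1, at 11.4 ± 3.36, stood last behind Fkbp5 at 15.9 ± 2.21 and Zbtb16 at 11.5 ± 4.59. The ranges of Zbtb16 overlapped those of both of these neighbours. The 10 genes together made up 1830.5 to 1943 TPM in the scramble and 1187 to 1384 TPM in the knockdown libraries. Tat was the largest single part in every library.

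The likeness of the patterns was measured as the root mean square difference of centred log2 normalized counts over the 6 libraries, where 0 is the same pattern. The closest of the other members was Hsd11b1 for Nr3c1 (0.118), Nr3c1 for Fkbp5 (0.184), Tat for both Sgk1 (0.248) and Tsc22d3 (0.290), Serpina6 for Zbtb16 (0.249), Zbtb16 for Dusp1 (0.290) and Hsd11b1 for Klf9 (0.147). Over all tested genes the patterns most like Nr3c1 were those of Arhgef26 (0.0211), Pdcd4 (0.0255) and Zfp664 (0.0308). Those most like Fkbp5 were Zmat3 (0.0271), Gemin5 (0.0286) and C1qb (0.0391), the last a complement gene typical of macrophages.

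The wider pathway was described with 8 lists that hold 102 further genes, each counted once, of which 96 were tested. A list of paralogs of the members is given apart and is not in these counts. By the test 3 rose and 6 fell, against 3.09% and 3.23% of all tested genes, and 37 were above and 59 below 0 with a median log2 fold change of -0.07. The share of all tested genes called in either direction, 6.32%, is the background for the counts of single lists below. Each list was small, and the number called over the 8 lists ran from 2 without scramble replicate 3 to 20 without knockdown replicate 3. In those fits 103 of 16649 and 1881 of 16762 tested genes were called. Of the 9 pathway genes called with all 6 libraries, Pdk4 and Per1 alone were called in all 6 fits with 1 library left out.

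Of the receptor's own machinery 1 gene was called, where 6.32% of all tested genes were. Among 17 chaperones and co-chaperones Hsp90aa1, the stress-inducible HSP90 that holds the receptor ready for hormone, was called higher. Scramble mice had normalized counts of 7096, 4317 and 5103, and knockdown mice 11478, 8521 and 8655 (log2 fold change 0.79, adjusted p = 0.0493 from edgeR's test). The groups did not overlap, but it kept its call in only 1 of 6 fits with 1 library left out and lost it, for example, without knockdown replicate 1 (0.63, adjusted p = 0.129 from edgeR's test). The largest difference not called was that of Hspa1a, an inducible HSP70 (-1.15, adjusted p = 0.0914 from edgeR's test). Of the 6 fits with 1 library left out, only 1 called it, that without knockdown replicate 3 (-1.43, adjusted p = 0.0416 from edgeR's test). Of 13 coactivators and corepressors 0 were called, 2 had an unadjusted p under 0.05, and the largest difference was that of Ppargc1a, the gluconeogenic coactivator (-0.34, adjusted p = 0.165 from edgeR's test). DESeq2 and limma's voom called 0 of the 13 as well.

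Among genes that handle corticosteroids, 9 of 10 were tested and 1 was called, against 6.32% of all tested genes. H6pd supplies the NADPH with which the Hsd11b1 enzyme makes corticosterone, and it rose. From 8299, 8465 and 7881 in scramble mice, its normalized counts reached 11318, 13664 and 10541 after knockdown. The groups were well apart, with a log2 fold change of 0.53 (SE 0.114, adjusted p = 0.024 from edgeR's test). It was called in 2 of 6 fits with 1 library left out and had an adjusted p of 0.128 without scramble replicate 3. Abcb1b, a drug and steroid exporter, had the largest difference not called (0.99, adjusted p = 0.0817 from edgeR's test). Of the 6 fits with 1 library left out, only 1 called it, that without knockdown replicate 3 (1.16, adjusted p = 0.0345 from edgeR's test).

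Of 17 other metabolic targets only Pdk4 was called, and it fell. Pdk4 encodes the kinase that shuts off pyruvate dehydrogenase in fasting, and the normalized counts went from 502, 685 and 533 in scramble mice to 193, 165 and 168 after knockdown. All 3 knockdown libraries were alike and far below the scramble range, with a log2 fold change of -1.71 (SE 0.136, adjusted p = 0.000209 from edgeR's test). The median of the list was -0.12. Pck1, which encodes the gluconeogenic enzyme PEPCK and was named after its value was seen, was at -0.13 (adjusted p = 0.757 from edgeR's test). The metallothionein gene Mt1 went the other way, with 102, 95.5 and 81.4 in scramble mice and 9475, 7627 and 861 after knockdown. All knockdown values of Mt1 were above the scramble range, and at a log2 fold change of 6.01 it was not called with knockdown replicate 3 (adjusted p = 0.0684 from edgeR's test) and was called without it (6.52, adjusted p = 8.19e-12 from edgeR's test). That was the only call of Mt1 in the 6 fits with 1 library left out.

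Of 15 other regulatory targets 3 fell and 0 rose, against 3.23% and 3.09% of all tested genes. The median log2 fold change of the list was -0.32. Per1, a clock gene that the receptor induces directly, had normalized counts of 427, 376 and 444 in scramble mice and 127, 77.9 and 153 after knockdown. Its log2 fold change was -1.80 (SE 0.206, adjusted p = 0.00294 from edgeR's test), with no overlap. Klf15, a Krüppel-like factor of amino acid breakdown, went from 2062, 1858 and 1961 to 1073, 1098 and 1467 (-0.69, adjusted p = 0.0106 from edgeR's test), and its adjusted p was 0.0772 without scramble replicate 3. Bcl6, a transcriptional repressor, went from 2005, 2185 and 1879.6 to 503, 985 and 937 (-1.32, adjusted p = 0.0377 from edgeR's test) and kept its call in only 1 of 6 fits with 1 library left out, with an adjusted p of up to 0.122. Gadd45b, a stress-response gene, had the largest difference not called (-1.40, adjusted p = 0.0845 from edgeR's test), at low counts of 4.53 to 26.7. Of 12 clock genes Per1 was the only one called, 11 were below 0, and Cry1, a clock repressor, had the largest other difference (-0.57, adjusted p = 0.121 from edgeR's test), which was -0.28 without scramble replicate 1.

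The immune arm was described with 2 lists. Of 8 anti-inflammatory targets, 7 were tested and 2 fell, against 3.23% of all tested genes. Nfkbia, which encodes the inhibitor that holds NF-kappaB in the cytoplasm, had 458, 530.2 and 459 in scramble mice and 305, 252 and 322 after knockdown (-0.72, adjusted p = 0.00867 from edgeR's test), with an adjusted p of 0.0552 without scramble replicate 3. Anxa1, which encodes annexin A1, had 85.2, 133 and 139 in scramble mice and 64.8, 55.1 and 47.1 after knockdown (-1.09, adjusted p = 0.020 from edgeR's test), and it was called in 3 of 6 fits with 1 library left out. The adjusted p of Anxa1 was highest, at 0.123, without scramble replicate 3. Lcn2, an acute-phase gene, ranged from 15.4 to 58.3 in the scramble libraries and was 433, 2035 and 53.4 in knockdown replicates 1, 2 and 3, so the groups overlapped through replicate 3 (4.59, adjusted p = 0.212 from edgeR's test). Without knockdown replicate 3 Lcn2 was at 5.15 (adjusted p = 0.0905 from edgeR's test), and without knockdown replicate 2 at 2.80.

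Of 11 inflammatory genes that the receptor represses, 7 were tested and Cxcl10 was called higher, while Il6, Tnf, Nos2 and Ptgs2 did not pass the filter on low counts. Cxcl10, an interferon-induced chemokine, had 70.8, 70.2 and 44.0 in scramble mice and 115, 125 and 102 after knockdown (0.89, adjusted p = 0.0328 from edgeR's test). It was called in 2 of 6 fits with 1 library left out, and without scramble replicate 3 its adjusted p was 0.133. Cxcl1, a neutrophil chemokine, had the largest difference not called (2.58, adjusted p = 0.217 from edgeR's test), with 32.8, 18.7 and 14.3 in scramble mice and 91.5, 277 and 29.9 after knockdown. Replicate 3 again brought the overlap, and the log2 fold change of Cxcl1 was 3.05 without it (adjusted p = 0.0531 from edgeR's test) and 1.45 without knockdown replicate 2 (adjusted p = 0.192 from edgeR's test). Markers of infiltrating myeloid cells were scarce, at a summed 4.04 to 7.38 TPM in the scramble and 5.72 to 12.3 TPM in the knockdown group. Of the 4 tested, 0 were called by edgeR, DESeq2 or voom and 0 had an unadjusted p under 0.05. Their groups overlapped, with 3 above and 1 below 0. S100a8 and S100a9 did not pass the filter on low counts. The raw counts of S100a8 were 1, 1 and 2 in scramble and 7, 11 and 4 in knockdown replicates 1 to 3. Those of S100a9 were 2, 1 and 0 in scramble and 12, 9 and 6 in knockdown replicates. Both were higher in every knockdown library, at low counts. The part of infiltrating myeloid cells in these values was not tested.

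Paralogs of the members were described for comparison, with 9 of 10 in the table and 8 tested. None was called at an adjusted p under 0.05 by edgeR's test, 2 had an unadjusted p under 0.05, and the median log2 fold change was -0.17. Sgk2, the liver-rich paralog of Sgk1, had the largest difference (-0.53, adjusted p = 0.067 from edgeR's test) and was called by DESeq2 (adjusted p = 0.0162). Of the 6 fits with 1 library left out, only 1 called it, that without knockdown replicate 3 (-0.71, adjusted p = 0.00146 from edgeR's test). Tsc22d1, a paralog of Tsc22d3 named after its value was seen, was at -0.33 (adjusted p = 0.638 from edgeR's test).

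**Figure D5:**
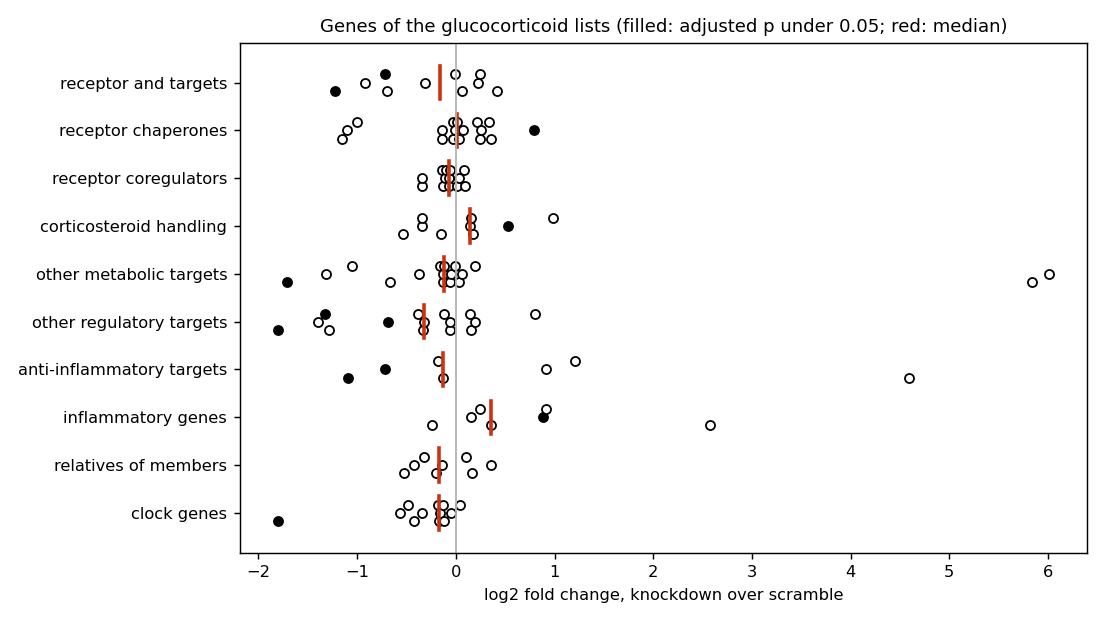
The log2 fold change, knockdown over scramble, of every tested gene in the list of 10, the 8 pathway lists and the list of paralogs, with called genes filled and the median of each list as a red line. Medians lie between -0.32 for other regulatory targets and 0.36 for inflammatory genes, and the point farthest to the right is the metallothionein gene Mt1 (6.01).

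Other cell types of the liver gave few calls. Of the markers tested 0 of 6 sinusoidal endothelial, 0 of 6 stellate, 0 of 4 cholangiocyte and 0 of 5 T and B cell genes were called by edgeR's test, of which 0, 1, 0 and 0 had an unadjusted p under 0.05, and DESeq2 and voom called 0 in each list. The summed level of the cholangiocyte markers was 32.8 to 38.9 TPM in the scramble and 46.8 to 183 TPM in the knockdown group. Spp1, which injured liver also expresses outside bile ducts, gave most of it (1.79, adjusted p = 0.274 from edgeR's test) and was highest in knockdown replicate 1, without which it was 0.65 and was called (adjusted p = 0.0148 from edgeR's test). That was the only call of Spp1 in the 6 fits with 1 library left out. The largest differences not called in the other marker lists were those of Apoa1 (0.41), Ly6c2 (0.69), Lyve1 (0.22), Des (-0.68) and Ms4a1 (0.51). Of these, Apoa1 was called without knockdown replicate 1 (0.48) and Des without scramble replicate 1 (-0.86), each in only 1 of 6 fits with 1 library left out. The summed ranges in the scramble and knockdown groups were 137 to 143 and 113 to 140.4 TPM for endothelial, 66.3 to 88.4 and 56.3 to 79.8 TPM for stellate, and 6.39 to 9.12 and 6.77 to 9.01 TPM for T and B cell markers. Their part in the members' values was not tested.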

How the data were processed

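RNA-seq of whole mouse liver was analysed from 6 libraries, 3 per group as the labels name them. According to the study's methods, the authors trimmed reads with Trimmomatic, aligned them with STAR to GRCm38, and counted uniquely mapped exonic reads with featureCounts; the submitters' processing notes name GRCm39. The authors deposited these raw counts for 40895 rows, and TPM values whose computation is not given in the sources used here. The strand setting and annotation release are not given either. The labels describe ribosomal RNA depletion and the methods a poly(A) kit. The deposited normalized counts and a table of the authors' own fold changes and p-values were not used. No column was left unassigned.

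The 92 spike-in rows were left out. In R 4.3.3, edgeR 4.0.16 with filterByExpr, TMM and a robust quasi-likelihood fit compared the groups with no covariate, and standard errors were the log2 fold change divided by the square root of F. Counts were tested as deposited, and TPM was used to compare levels between genes and, with 0.1 added, in limma 3.58.1. The biological coefficient of variation was 13.9%, well above the counting error of the members. Intervals are at 95% and rest on 3 mice per group. Alternatives were DESeq2 1.42.0, limma's voom, DESeq2 size factors, library totals, spike-in sizes, no filter, a replicate block, at least 50 counts on average, TPM, and each library left out. The same alternatives for named genes of the pathway and marker lists were added after seeing the data. Scripts were tested on simulated data. A chi-square of the counts of each pair from the same group came to 7.69 to 31.7 per gene, where sampling noise gives about 1, so none was a repeat of another.

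The 10 genes, the lists and the tests were chosen with earlier results of these data known. Named genes were the 10, Hnf1aos1, the called genes of each list and its largest difference not called, and the closest patterns; exceptions are marked. Gene symbols were matched to GENCODE M21 for coordinates, and 37851 of 40803 were found there or in RefSeq on GRCm38.p6. Upstream windows of Nr3c1, Zbtb16 and Serpina6, and the genes Tf and Tsc22d4 of the lists, were not analysed here. Figures used matplotlib 3.10.9.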

Additional observations from a re-analysis of the deposited data

How the results depend on the processing

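The count of the 10 genes called was 2, and it was 4 with DESeq2 and 5 with spike-in sizes. With 1 library left out it ran from 1 (without scramble replicate 3) to 5 (without knockdown replicate 3). Over all genes 1032 were called, with 3394 for spike-in sizes, 1902 with no filter on low counts, 594 for log2(TPM + 0.1) and 103 (without scramble replicate 3) to 1881 (without knockdown replicate 3) with 1 library left out. Of the 102 pathway genes 9 were called, with 14 for DESeq2, 23 for spike-in sizes, 18 with no filter and 2 to 20 with 1 library left out. Hnf1aos1 passed the threshold with DESeq2 (log2 fold change -0.74), voom (-0.77), no filter (-0.74) and without knockdown replicate 3, and ran from -1.01 to -0.60 with 1 library left out. The sign of Dusp1 was reversed with spike-in sizes (0.20) and in 4 of 6 fits with 1 library left out, which ran from -0.40 to 0.25. That of Hsd11b1 was reversed with library totals (-0.0089) and log2(TPM + 0.1) (-0.015), and in 2 of 6 fits with 1 library left out, which ran from -0.019 to 0.12. None of the other members, nor Hnf1aos1 or the list genes named by rule, changed sign. With fewer samples the spread is estimated from less, and spike-in sizes shift all genes alike; other causes were not tested.

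Same-numbered libraries did not deviate together over all tested genes (r of deviations across genes -0.0271, 0.0194 and 0.00724). A value over all genes cannot exclude a pairing that touches only some of them. With the replicate block, 878 genes, 3 of the 10 and 11 pathway genes were called, and Hnf1aos1 was at -0.77 and past the threshold. Tsc22d3 was called under every alternative. With 3 mice per group no exact permutation test of a single gene can give less than 0.1.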
